A study of Mus musculus with 6 samples.

Results

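Cadherins are membrane proteins that join neighbouring cells through repeated extracellular domains held rigid by calcium. The genes described here were all rows of the count table whose symbol begins with Cdh or Pcdh and a digit, with Pcdha, Pcdhb or Pcdhg, or with Dsc or Dsg and a digit, and 78 of the 30438 rows met that rule. The cells are HEI-OC1, a line of the mouse organ of Corti with conditional immortalisation that is used to study drugs toxic to hair cells, and the labels give its cell type as cochlear stem cell. RNA was enriched for poly(A) and sequenced. The 6 libraries form 2 groups: 3 labelled as HEI-OC1 with an Nrf2 knockout, and 3 of unedited HEI-OC1 labelled WT, here the control. Cells of either group grew at 33 °C and 10% CO2 in medium holding 10% serum and penicillin-streptomycin, without any other agent in the labels. Whether the knockout cells descend from 1 clone, how they were edited, and whether the replicates were separate cultures is not stated in the labels. The p-values therefore speak of the spread among these libraries, which may be technical. The submitters ask what could lie behind a resistance to cisplatin in the knockout line, and the only comparison is knockout over control.

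Classical cadherins bind the same cadherin on the next cell and are tied to actin inside the cell by catenins, and desmosomal cadherins are tied in the same way to keratin filaments. Clustered protocadherins are encoded by tandem arrays named alpha, beta and gamma. In the alpha and gamma arrays each promoter and its variable exon are spliced to constant exons shared by the whole array, and in neurons single cells use different sets of these isoforms. In the inner ear, cadherin-23 and protocadherin-15 form the tip links that open the channels of hair cell bundles.

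The libraries held between 29130007 and 51285343 counts in the group labelled Nrf2 KO and between 38636523 and 44098578 in the control group. Nfe2l2, the gene of NRF2, was at 395.7, 235.6 and 204.5 CPM (counts scaled to a common library size by TMM) in the libraries labelled Nrf2 KO, against 74.2, 126.5 and 96.7 CPM in the control libraries. Its log2 fold change, 1.49 with an SE of 0.33 (adjusted p = 0.0456, edgeR), was positive, so the transcript was not lower in the libraries labelled as knockout. Where the edit lies is not stated, and directions below follow the labels. In bulk RNA, fewer cells with a transcript and less of it per cell cannot be told apart. Nrf2 KO replicate 1 stood apart, with a Pearson's r of log2 CPM across genes of 0.931 and 0.939 to the other libraries of its group, which had an r of 0.995 with each other. Its r with control replicate 1 was 0.938. Nrf2 KO replicates 2 and 3 were closer to control replicates 2 and 3 (r of 0.952 to 0.959) than to Nrf2 KO replicate 1. Of the mesenchymal markers 11 of 13 were expressed (summed level 11208 to 13609 CPM in the Nrf2 KO-labelled libraries and 12638 to 12831 in the control libraries). At an adjusted p under 0.05 by edgeR 4 of them rose and 0 fell, where 4.83% and 3.45% of all tested genes did. In each of the hair cell, supporting cell and epithelial lists 1 marker rose, and among leukocyte markers 1 fell. Of the hair cell markers 2 of 10 were expressed, with Atoh1, Slc26a5 and Tmc1 at 0, and they summed to 62.5 to 76.5 CPM in the Nrf2 KO-labelled libraries, against 33.2 to 45.2 CPM in the control libraries. Of the supporting cell markers 4 of 12 were expressed, with Sox2, Sox10 and Tecta at 0, and they summed to 252 to 326 CPM against 211 to 226 CPM in the control libraries. Of 16 epithelial markers 5 were expressed, and Krt8, Krt18 and Krt19 were at 0. The summed epithelial markers were at 87.9 to 139 CPM in the Nrf2 KO-labelled libraries and 60.5 to 83.7 CPM in the control libraries, and endothelial markers at 0.924 to 1.40 CPM against 2.71 to 3.04 CPM in the control libraries. The hair cell, supporting cell, epithelial and endothelial sums thus did not overlap between the groups, and the part of any marker list in the results below was not tested. The hair cell sum rested almost wholly on Myo7a and Myo6. Myo7a did not overlap, at 30.0, 15.2 and 15.8 CPM in the Nrf2 KO-labelled libraries against 1.45, 1.08 and 1.42 CPM in the control libraries. Myo6 overlapped, at 32.4, 61.2 and 51.2 CPM against 31.5, 43.9 and 36.4 CPM in the control libraries. The epithelial sum rested mostly on Grhl2, at 124.8, 81.2 and 80.3 CPM in the Nrf2 KO-labelled libraries against 79.7, 58.1 and 65.3 CPM in the control libraries. Grhl2 cleared the controls by a narrow margin only. Neuron markers summed to at most 0.192 CPM in any library.

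Of the 78 genes, 24 were expressed (10 or more counts in at least 3 libraries), 32 were detected below that limit with 1 to 93 counts summed over the 6 libraries, and 22 had 0 counts in every library. A count of 0 in a library allows a level of up to 0.0611 to 0.0958 CPM, by counting error alone. The statistical filter kept 25 genes. At an adjusted p under 0.05 (quasi-likelihood test of edgeR, adjusted by Benjamini-Hochberg over 14618 genes), 5 of the 25 rose in the libraries labelled Nrf2 KO, namely Pcdh17, Pcdhb21, Pcdhga1, Pcdhgb5 and Cdh16, and Pcdhga12 fell. Of all genes tested, 4.83% rose and 3.45% fell under the same rule. Without the adjustment, 9 of the 25 were higher and 1 was lower at p under 0.05. The groups did not overlap for 9 higher and 1 lower of the 25, against 17.1% and 17.1% of all tested genes. The 25 genes had a median log2 fold change of 0.87, with 19 positive values, against a median of 0.04 and 53.6% positive values over all tested genes. Several of the 25 reached the filter only through the group in which they are high. Of the genes called higher, Pcdh17, Pcdhb21, Pcdhgb5 and Cdh16 had under 10 counts in every control library. That median, and the counts of higher and of non-overlapping genes, therefore describe the 25 and support nothing. With the replicate number as a block, 8 rose and 2 fell (background 10.4% and 7.92%), the additions being Cdh11, Pcdhb22 and Pcdhga3 among the higher and Pcdhgb8 among the lower. DESeq2 called 9 higher and 1 lower (background 10.9% and 9.02%), a filter of 1 CPM left 3 and 1 (5.22% and 3.80%), and no filter gave 6 and 2 (2.85% and 1.98%).

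**Figure D1:**
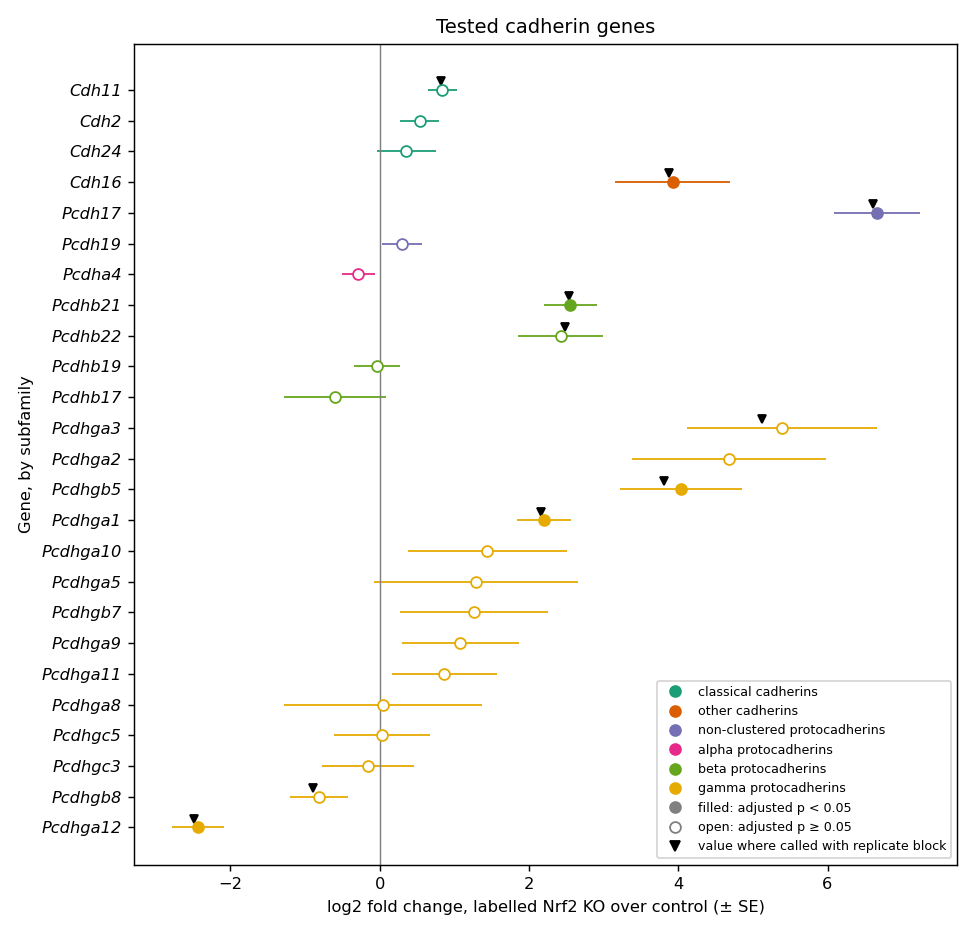
Log2 fold change of labelled Nrf2 KO over control (x axis, ± SE of the fit) for the 25 tested cadherin genes (rows, coloured by subfamily); filled circles passed an adjusted p of 0.05 and black triangles give the value where the fit with a replicate block passed. Pcdh17 lies farthest right at 6.66 and Pcdhga12 farthest left at -2.44.

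Among classical cadherins the cells expressed Cdh11, Cdh24 and Cdh2, and 15 of the 18 genes were below the expression limit. Cdh11, the OB-cadherin of bone and loose mesenchyme, was at 201.3, 285.5 and 277.8 CPM in the Nrf2 KO-labelled libraries, against 127.5, 150.4 and 149.2 CPM in the control libraries. All 3 libraries labelled Nrf2 KO lay above all 3 controls. The log2 fold change was 0.84 (SE 0.19), with an adjusted p of 0.0504 by edgeR's quasi-likelihood test, just outside the threshold. It passed with the replicate block (adjusted p = 0.0183), with median-of-ratios scaling (0.0463), with library size alone (0.0339), with a filter of 1 CPM (0.0376), by DESeq2 (0.000439), without Nrf2 KO replicate 1 (0.00273) and without both libraries numbered 1 (0.000116). It did not pass with no filter on low counts (0.0822), with a filter of 10 counts in 3 libraries (0.0509), or without any 1 of the other 5 libraries (0.151 to 0.226). Col1a2, a marker of mesenchymal cells looked at after its values were seen, was at 1240 to 1936 CPM in the Nrf2 KO-labelled libraries, against 143 to 194 CPM in the control libraries. Col1a1 was also higher without overlap, at 1927 to 2918 CPM against 841 to 1113 CPM in the control libraries. So were Pdgfra (180 to 240 against 49.8 to 60.2 CPM) and Thy1 (107 to 149 against 34.3 to 37.4 CPM). Twist1 and Tbx18 were higher without overlap by a narrow margin. The mesenchymal markers Col3a1 and Vim went the other way without overlap. Col3a1 was at 2660 to 2928 CPM in the Nrf2 KO-labelled libraries, against 4179 to 4837 CPM in the control libraries. Vim was at 3422 to 4559 CPM, against 5503 to 6601 CPM in the control libraries. The part of these markers in the Cdh11 values was not tested.

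Cdh2, the N-cadherin of neural and mesenchymal cells, was at 96.3, 166.6 and 173.0 CPM in the Nrf2 KO-labelled libraries, against 84.1, 111.4 and 105.3 CPM in the control libraries. Nrf2 KO replicate 1 lay within the control range and the others above it. The log2 fold change was 0.54 with an SE of 0.26 (adjusted p = 0.274, edgeR), and without Nrf2 KO replicate 1 it was 0.76 (adjusted p = 0.0116). Cdh2 also passed without both libraries numbered 1 (0.000537), but not with the replicate block (0.0744), by DESeq2 (0.206) or without any 1 of the other 5 libraries (0.381 to 0.548). Cdh24, a type II cadherin, was at 295.4, 128.4 and 131.3 CPM, against 188.6, 113.1 and 131.2 CPM in the control libraries. Replicate 1 was the highest of its group on both sides, and the groups overlapped (log2 fold change 0.36, SE 0.39, adjusted p = 0.645 by edgeR), with a value of -0.16 without Nrf2 KO replicate 1.

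Per transcript length, in the authors' deposited table of 1 FPKM value per group, Cdh24, Cdh11, Pcdhgc3 and Cdh2 were the 4 highest of the 78 genes in both groups. In the group labelled Nrf2 KO the authors' deposited table gives 45.2 FPKM for Cdh24, 38.9 for Cdh11, 38.2 for Pcdhgc3 and 26.8 for Cdh2. In the control group the authors' deposited table gives 35.1 FPKM for Cdh24, 22.3 for Cdh11, 43.8 for Pcdhgc3 and 18.8 for Cdh2. No other cadherin gene exceeded 5.07 FPKM in either group of the authors' deposited table. That table has no value per library, so neighbours in this order could not be tested.

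Cdh1, the E-cadherin of epithelia, was nearly undetected, with 0, 0 and 2 counts in the libraries labelled Nrf2 KO and 4, 8 and 13 in the control libraries. The ratio of the summed counts per scaled library was 0.0806 (95% exact binomial interval 0.00925 to 0.323, counting error only), and the gene was too low for the main test (adjusted p = 0.155 with no filter on low counts, by edgeR). A pair of type II cadherins that were picked out after their values were seen had no counts in 1 group. Cdh9 had 0 counts in each library labelled Nrf2 KO, against 7, 13 and 16 in the control libraries, which makes it at least 11.9-fold lower, taking 3 counts over the group as the floor. Cdh10 had 4, 8 and 6 counts in the libraries labelled Nrf2 KO and 0 in each control library, at least 6.04-fold higher against the same floor. Neither passed the filter with all 6 libraries. Cdh9 was called lower in 3 other settings: the test on every detected gene (0.0387), and the fits without Nrf2 KO replicate 1 (adjusted p = 0.0143 by edgeR) or both libraries numbered 1 (0.00326). It was tested and not called without Nrf2 KO replicate 2 (0.0827), Nrf2 KO replicate 3 (0.0808) or control replicate 1 (0.0889).

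**Figure D2:**
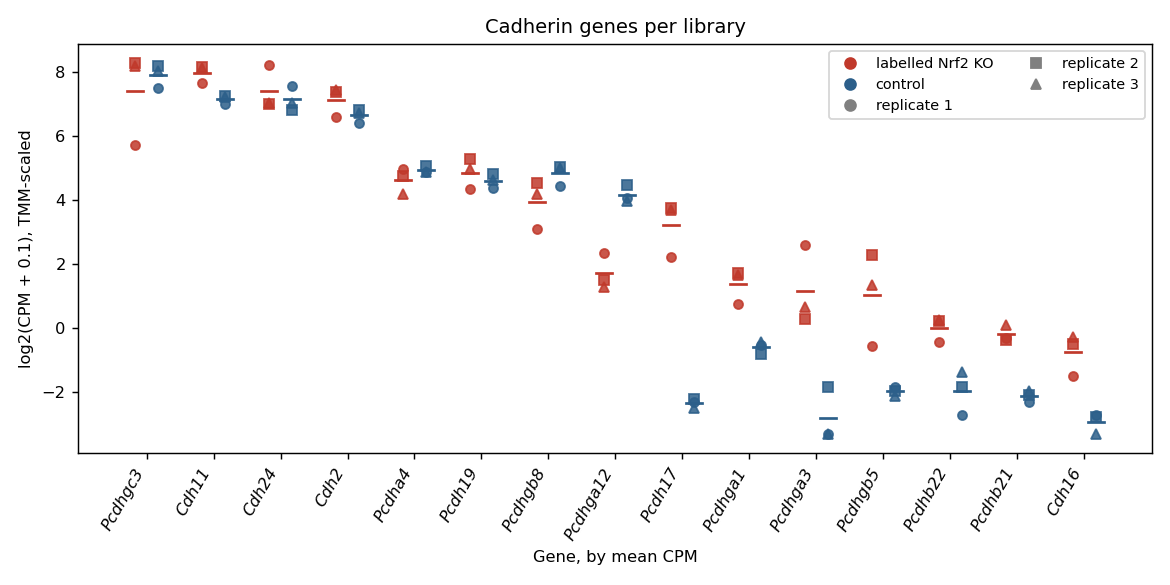
Level of each named and tested cadherin gene per library (y axis, log2 of TMM-scaled CPM plus 0.1), with red for labelled Nrf2 KO, blue for control, a marker shape per replicate number and a bar at the group mean of the log values. The groups are far apart for Pcdh17 and overlap for Pcdhgc3, where Nrf2 KO replicate 1 lies at 52.8 CPM below every other library.

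Of the 5 other cadherins (Cdh13, Cdh16, Cdh17, Cdh23 and Cdh26), Cdh16 alone was tested, and it rose. It encodes the Ksp-cadherin of kidney epithelium, a cadherin with a short cytoplasmic tail. It had 8, 30 and 30 counts in the libraries labelled Nrf2 KO, against 2, 2 and 0 in the control libraries. Both groups were low and did not overlap (0.532 ± 0.247 CPM labelled Nrf2 KO and 0.0320 ± 0.0279 CPM control, SD, n = 3 each), and the log2 fold change was 3.93 with an SE of 0.77 (adjusted p = 0.0309, edgeR). Only the libraries labelled Nrf2 KO numbered 2 and 3 held 10 counts or more, so Cdh16 is tested without being counted as expressed. The tip link genes were barely present. Cdh23 had 7, 1 and 2 counts in the libraries labelled Nrf2 KO and 12, 12 and 7 in the control libraries, a ratio of 0.325 (95% exact binomial interval 0.142 to 0.680, counting error only). Cdh23 reached the test in 5 of the 6 fits without 1 library. It passed as lower without Nrf2 KO replicate 1 (adjusted p = 0.0213 by edgeR). It did not pass without Nrf2 KO replicate 2 (0.526) or 3 (0.528), without control replicate 1 (0.533) or 3 (0.479), or with no filter on low counts (0.389). Pcdh15 had 1 count in Nrf2 KO replicate 3 and 1 in control replicate 1, and 0 in the other libraries.

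Of 12 non-clustered protocadherins, 2 were expressed and 6 had no counts, among them Pcdh7, Pcdh8, Pcdh10 and Pcdh18. Pcdh17, a protocadherin known from synapse and axon development, had 144, 648 and 526 counts in the libraries labelled Nrf2 KO, against 4, 5 and 3 in the control libraries. That is 4.60, 13.2 and 12.8 CPM against 0.102, 0.112 and 0.0773 CPM, with no overlap. The log2 fold change of 6.66 (SE 0.58, adjusted p = 0.00330 by edgeR) was the largest of the 25. Pcdh17 passed in each of the 6 fits that left out 1 library, with adjusted p between 8.32e-05 and 0.0335 and log2 fold changes between 6.43 and 7.01. Pcdh19, which binds together with N-cadherin and is the X-linked epilepsy gene of the family, was at 20.0, 38.3 and 31.4 CPM, against 20.6, 27.6 and 24.6 CPM in the control libraries. The groups overlapped through replicate 1 labelled Nrf2 KO (log2 fold change 0.30, SE 0.27, adjusted p = 0.562 by edgeR), and Pcdh19 passed as higher without both libraries numbered 1 (adjusted p = 0.0254). With 1 library left out its adjusted p was 0.0547 to 0.903.

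The upstream regions of these non-clustered genes are shown because one differed strongly between the groups while the other was expressed in both. They are RefSeq sequences of mouse build GRCm38.p6, the 250 bases before the annotated start, at chr14:84443313-84443562 on the plus strand for Pcdh17 and chrX:133688994-133689243 on the minus strand for Pcdh19. Capitals mark CCAAT boxes (CCAAT or its complement ATTGG). In the table of promoters used here, 5 of the 19 named genes had an entry.
Pcdh17: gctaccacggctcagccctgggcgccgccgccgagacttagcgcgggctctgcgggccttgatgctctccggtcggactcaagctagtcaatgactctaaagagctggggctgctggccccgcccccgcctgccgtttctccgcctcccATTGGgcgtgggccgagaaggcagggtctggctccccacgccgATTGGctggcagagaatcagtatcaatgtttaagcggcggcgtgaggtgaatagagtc
Pcdh19: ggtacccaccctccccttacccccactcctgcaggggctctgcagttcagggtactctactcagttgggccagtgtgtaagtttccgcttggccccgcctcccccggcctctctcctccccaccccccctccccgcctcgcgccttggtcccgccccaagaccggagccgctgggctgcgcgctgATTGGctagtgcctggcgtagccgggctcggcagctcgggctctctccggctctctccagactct
Pcdh17 holds 2 CCAAT boxes, whose first bases lie 101 and 58 bases before the start, and Pcdh19 holds 1 at 65 bases before it. A CCAAT box occurs in 33.8% of 32851 promoter windows of that length. The core of the antioxidant response element bound by NRF2, TGACNNNGC on either strand, matched neither window and occurs in 10.2% of all windows. The E-box CACCTG on either strand, a site of Snail and ZEB factors, also matched neither and occurs in 17.2%. No matches overlap, since only CCAAT boxes were found, and a match or its lack says nothing of binding in these cells.

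The gamma protocadherins were the most widely expressed subfamily, with 14 of 17 genes over the limit and none at 0 in all libraries. In the test 2 of the 14 rose and 1 fell, where 4.83% and 3.45% of all tested genes did. Their levels are uncertain in one respect: the isoforms share constant exons and close sequence, and how the authors' counting assigned such reads is not stated. Pcdhgc3, a C-type isoform expressed outside the nervous system as well, held more counts than any other gamma gene in every library. It was at 52.8, 313.0 and 288.7 CPM in the Nrf2 KO-labelled libraries, against 182.4, 288.2 and 259.1 CPM in the control libraries. Nrf2 KO replicate 1 was far below the other 5 libraries, and control replicate 1 was the lowest of its group. The log2 fold change was -0.16 with an SE of 0.62 (adjusted p = 0.915, edgeR) and 0.30 without Nrf2 KO replicate 1 (adjusted p = 0.282). The summed gamma genes therefore varied mainly with that gene, at 119, 358 and 328 CPM in the Nrf2 KO-labelled libraries and 233, 350 and 314 CPM in the control libraries.

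Among the A and B isoforms the clearest difference was Pcdhga12. It was at 4.95, 2.73 and 2.33 CPM in the Nrf2 KO-labelled libraries, against 16.6, 22.0 and 15.4 CPM in the control libraries. Every library labelled Nrf2 KO lay below every control, and the log2 fold change was -2.44 with an SE of 0.35 (adjusted p = 0.0124, edgeR). Of all counts of the 15 A and B genes, not corrected for length, Pcdhga12 held 7.47% (95% Wilson interval 6.42 to 8.69), 6.38% (5.42 to 7.51) and 6.51% (5.36 to 7.89) in the libraries labelled Nrf2 KO. It held 33.5% (31.4 to 35.6), 36.7% (34.9 to 38.5) and 29.1% (27.2 to 31.1) in the control libraries. These intervals cover counting error only, and the 3 shares labelled Nrf2 KO were all below the 3 control shares. The summed A genes and the summed B genes overlapped between the groups. The A genes summed to 42.8, 13.3 and 14.0 CPM in the Nrf2 KO-labelled libraries and 23.8, 25.3 and 19.3 CPM in the control libraries, and the B genes to 23.4, 29.4 and 21.8 CPM against 25.7, 34.7 and 33.7 CPM. The B sum was lower with the Nrf2 KO label in each of the 3 same-numbered pairs, and the sums were not tested.

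Among the other A and B isoforms Pcdhga1 and Pcdhgb5 rose. Pcdhga1 was at 1.60, 3.16 and 3.06 CPM in the Nrf2 KO-labelled libraries, against 0.587, 0.472 and 0.645 CPM in the control libraries, with no overlap (log2 fold change 2.20, SE 0.36, adjusted p = 0.0184 by edgeR). Pcdhgb5 was at 0.575, 4.72 and 2.46 CPM, against 0.179, 0.157 and 0.129 CPM in the control libraries. These groups did not overlap either, with replicate 1 the lowest of those labelled Nrf2 KO (log2 fold change 4.04, SE 0.82, adjusted p = 0.0345 by edgeR). Pcdhga3 was at 5.87, 1.12 and 1.46 CPM, against 0, 0.180 and 0 CPM in the control libraries. Here replicate 1 labelled Nrf2 KO was the highest, and not the lowest as for Pcdhgb5. Pcdhga3 passed with the replicate block (log2 fold change 5.12, adjusted p = 0.0389) but not in the main test (5.39, SE 1.28, adjusted p = 0.0549 by edgeR). It passed by DESeq2 (0.000159), and by edgeR with no filter on low counts (0.0475). It also passed without Nrf2 KO replicate 1 (0.0138) and without both libraries numbered 1 (0.00297). It did not pass with the other scalings and filters (0.0551 to 0.0605) or without any other single library (0.0898 to 0.207). Pcdhga2, looked at after its values were seen, had the same order, at 12.5, 1.43 and 2.21 CPM against 0, 0.180 and 0.438 CPM, and an adjusted p of 0.0832 by edgeR. Pcdhga2 passed by DESeq2 (0.000688), and by edgeR without Nrf2 KO replicate 1 (0.0270) or both libraries numbered 1 (0.00229). It did not pass with the replicate block (0.0693) or in the other settings.

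Pcdhgb8 held the largest share of A and B counts in 5 of the 6 libraries. Its share was 12.7% (95% Wilson interval 11.4 to 14.2) in Nrf2 KO replicate 1, 53.2% (51.1 to 55.3) in replicate 2 and 50.4% (47.9 to 53.0) in replicate 3. In the control libraries it was 43.7% (41.5 to 45.9), 54.8% (52.9 to 56.7) and 60.3% (58.1 to 62.3). In Nrf2 KO replicate 1 the leading isoforms were Pcdhgb7 with 21.4% (19.6 to 23.2), Pcdhga2 with 18.9% (17.2 to 20.6) and Pcdhga10 with 13.3% (11.9 to 14.8). Pcdhgb8 passed as lower with the replicate block (log2 fold change -0.90, adjusted p = 0.0389) and not in the main test (-0.81, SE 0.38, adjusted p = 0.259 by edgeR). It also passed as lower without both libraries numbered 1 (-0.66, adjusted p = 0.00421 by edgeR), and in no other setting.

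Some gamma genes were at an extreme in the library numbered 1 of both groups. Pcdhgb7, Pcdhga5, Pcdhga9, Pcdhga10 and Pcdhga11 were highest in the library numbered 1 on both sides, and Pcdhgc3, Pcdhgc5, Pcdhgb8 and Pcdhga8 were lowest there on both sides. Pcdhgb7 was at 14.1, 1.81 and 1.19 CPM in the Nrf2 KO-labelled libraries, against 3.85, 1.64 and 1.57 CPM in the control libraries. Of the 14 tested gamma genes 35.7% were highest and 28.6% lowest in the library numbered 1 of both groups, against 35.0% and 36.4% of all tested genes. Over all 25 tested cadherin genes the shares were 24.0% and 32.0%.

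**Figure D3:**
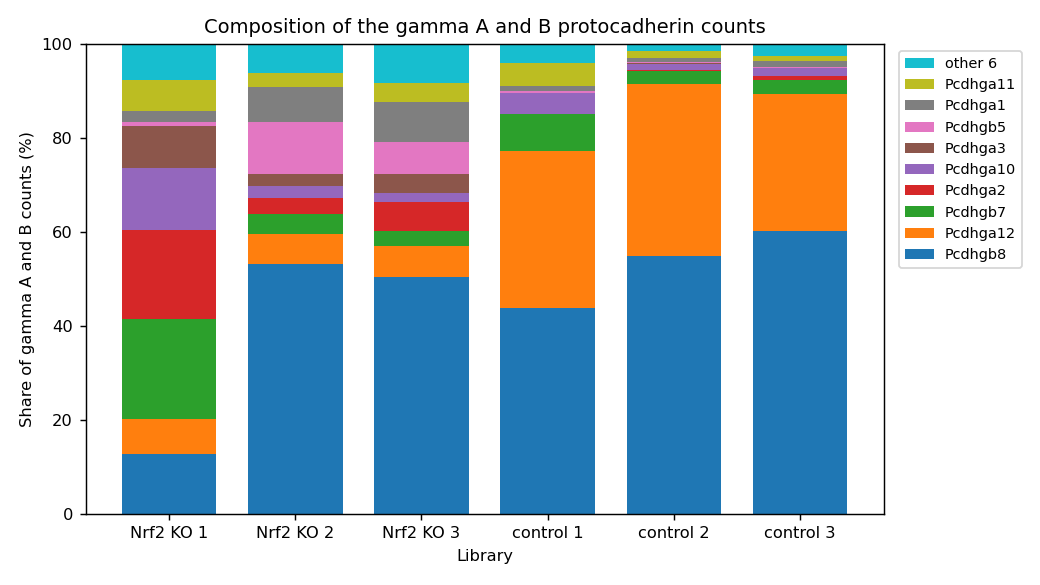
Share of the summed gamma A and B protocadherin counts held by each isoform (y axis, %, not corrected for length) in each of the 6 libraries, with the 6 remaining isoforms pooled. Pcdhga12 takes 29.1% to 36.7% of the control bars and 6.38% to 7.47% of the bars labelled Nrf2 KO.

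The alpha array was represented by Pcdha4 alone, at 31.0, 26.7 and 17.9 CPM in the Nrf2 KO-labelled libraries, against 29.4, 33.2 and 29.3 CPM in the control libraries. The groups overlapped (log2 fold change -0.28, SE 0.23, adjusted p = 0.514 by edgeR), and 12 further mouse Pcdha symbols were not among the gene symbols counted. Beta protocadherins, which are single-exon genes with close copies so that their reads can be split, were scarce: 4 of 18 were expressed and 5 had no counts. Pcdhb21 had 22, 33 and 40 counts in the libraries labelled Nrf2 KO, against 4, 6 and 6 in the control libraries. The groups did not overlap, and the log2 fold change was 2.56 with an SE of 0.36 (adjusted p = 0.0109, edgeR). Pcdhb22 had 20, 52 and 45 counts, against 2, 8 and 11 in the control libraries, also with no overlap. It missed the threshold in the main test (log2 fold change 2.43, SE 0.57, adjusted p = 0.0538 by edgeR) and passed with the replicate block (2.49, adjusted p = 0.0209). Pcdhb22 also passed by DESeq2 (0.00120), and by edgeR without Nrf2 KO replicate 1 (0.0120) or both libraries numbered 1 (0.00187). It passed in no other setting. Pcdhb17 and Pcdhb19 had log2 fold changes of -0.60 and -0.03 and did not pass. The 18 beta genes summed to 2.30, 2.81 and 2.89 CPM in the Nrf2 KO-labelled libraries, against 1.10, 1.60 and 1.19 CPM in the control libraries.

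All 7 desmosomal cadherins (Dsc1 to Dsc3 and Dsg1 to Dsg4) had 0 counts in every library, Dsg2 included, which is the desmoglein of simple epithelia. The table names genes as in the rat, and whether mouse reads were lost from these gene models was not tested. The plaque genes were unequal. Pkp1, which encodes the desmosomal plakophilin-1, was at 87.6, 361.9 and 334.6 CPM in the Nrf2 KO-labelled libraries, against 118.8, 225.0 and 192.5 CPM in the control libraries, and the groups overlapped (log2 fold change 0.55, SE 0.54, adjusted p = 0.605 by edgeR). The related Pkp4 averaged 105.3 CPM and periplakin (Ppl) 20.8 CPM in the Nrf2 KO-labelled libraries, against 67.8 and 33.5 CPM in the control libraries, and neither passed (adjusted p = 0.284 and 0.0835 by edgeR). Perp was at 0 in every library. Desmoplakin (Dsp) averaged 0.0543 and plakoglobin (Jup) 0.0405 CPM in the Nrf2 KO-labelled libraries, against 0.106 and 0.0555 CPM in the control libraries, both too low to test. Of 24 adherens and desmosomal plaque genes 15 were tested, and 2 rose and 0 fell, with a median log2 fold change of 0.22. Over all tested genes 4.83% rose and 3.45% fell, with a median of 0.04. Vcl, which encodes vinculin, the actin linker of adherens junctions and focal adhesions, was at 352.8, 645.6 and 600.7 CPM in the Nrf2 KO-labelled libraries, against 143.2, 215.2 and 184.7 CPM in the control libraries. The groups did not overlap (log2 fold change 1.56, SE 0.30, adjusted p = 0.0288 by edgeR). Nectin3, an immunoglobulin-type partner of cadherin junctions, averaged 106.8 ± 10.2 CPM in the Nrf2 KO-labelled libraries and 55.2 ± 3.32 CPM in the control libraries (SD, n = 3 each; log2 fold change 0.95, SE 0.14, adjusted p = 0.0132 by edgeR). The catenins Ctnna1, Ctnnb1 and Ctnnd1 had log2 fold changes of 0.19, 0.27 and 0.12 and adjusted p of 0.830, 0.573 and 0.797 by edgeR.

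Of 18 cadherin relatives outside the naming rule, 8 were tested, 1 rose and 0 fell, with a median log2 fold change of 0.48 (all tested genes 4.83%, 3.45% and 0.04). Dchs2, a large dachsous-type cadherin, had 0 counts in each control library. It had 42, 111 and 97 counts in the libraries labelled Nrf2 KO, at least 83.9-fold higher against a floor of 3 counts over the control group (adjusted p = 0.00789 by edgeR). Of 13 regulators of clustered protocadherin promoters, a list of CTCF, cohesin subunits and DNA or histone methyltransferases among others, 0 rose and 1 fell, with a median of -0.08. The gene that fell was Dnmt3a, a de novo DNA methyltransferase, at 25.9, 24.7 and 24.3 CPM in the Nrf2 KO-labelled libraries, against 48.3, 51.2 and 48.4 CPM in the control libraries (log2 fold change -0.98, SE 0.13, adjusted p = 0.00884 by edgeR). Of 7 repressors of the E-cadherin gene, 0 rose and 1 fell, with a median of 0.23. That was Twist2, at 5.59, 5.70 and 6.08 CPM against 10.8, 11.4 and 12.2 CPM in the control libraries (log2 fold change -0.99, SE 0.17, adjusted p = 0.0206 by edgeR). With the replicate block 2 repressors rose and 1 fell. Zeb2 was at 131.4, 160.0 and 154.9 CPM against 80.7, 106.5 and 96.2 CPM in the control libraries, without overlap. Its adjusted p by edgeR was 0.0689 (log2 fold change 0.66, SE 0.17), and 0.0214 with the block. Twist1 was also higher with the block (adjusted p = 0.0405 by edgeR) but did not pass in the main test (0.188). Without both libraries numbered 1, 2 repressors rose and 3 fell (background 24.0% and 22.1%). Those that rose were Zeb2 (0.000840 by edgeR) and Twist1 (0.0178). The medians compare with 0.04 over all tested genes. Over the 4 lists, 3 genes rose and 2 fell of 43 tested, on a background of 4.83% and 3.45%, and with the replicate block 8 rose and 2 fell, on 10.4% and 7.92%.

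Most calls were lost in some fit without 1 library. Pcdh17 alone passed in every fit without 1 library. Pcdhb21 also passed without Nrf2 KO replicate 1 or 2 and otherwise had adjusted p between 0.0546 and 0.0794. Pcdhga12, Pcdhga1, Pcdhgb5 and Cdh16 passed without Nrf2 KO replicate 1 and were lost without any 1 of the other 5 libraries, with adjusted p from 0.0503 to 0.0654, 0.0724 to 0.109, 0.0839 to 0.171 and 0.103 to 0.125, all in the same direction. Without Nrf2 KO replicate 2, Pcdh17 and Pcdhb21 rose and none fell (background 1.79% and 0.740%), and without any 1 of Nrf2 KO replicate 3 or the controls Pcdh17 alone was called. Without Nrf2 KO replicate 1, 11 cadherin genes rose and 3 fell of 28 tested, on a background of 15.6% and 14.5%, and without both libraries numbered 1, 13 rose and 3 fell of 27 (background 24.0% and 22.1%).

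**Figure D4:**
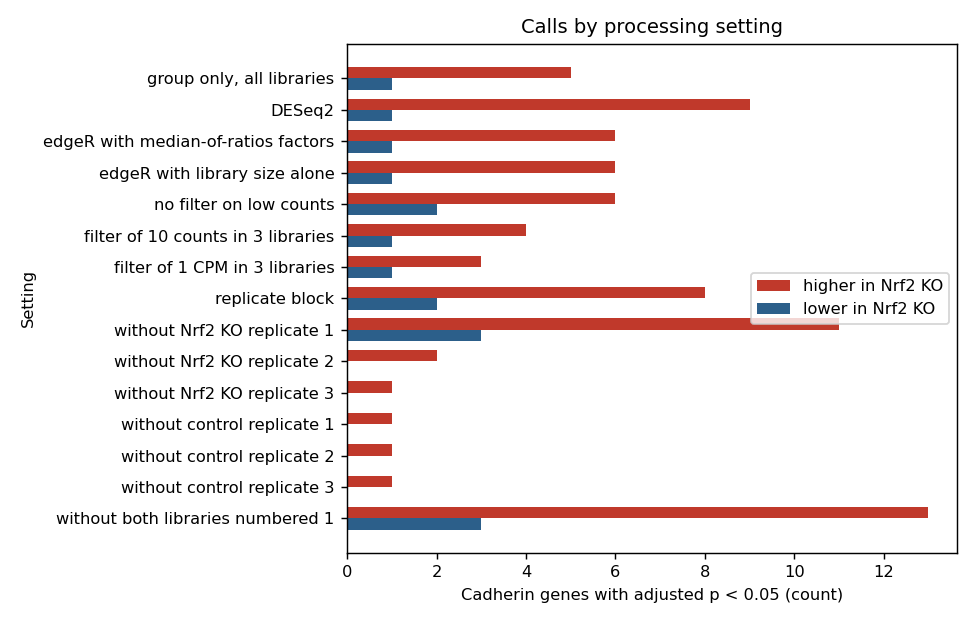
Number of cadherin genes with an adjusted p under 0.05 (x axis, count) that were higher (red) or lower (blue) in the libraries labelled Nrf2 KO, for each processing setting (rows). The count higher runs between 1 and 13, and is 13 without both libraries numbered 1, 11 without Nrf2 KO replicate 1 and 1 without control replicate 1.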

How the data were processed

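The submitters' processing notes name fastp, FastQC, HISAT2, DESeq2 1.34.0 and the build hg18 without saying what each was used for. No counter, strand setting or annotation is stated. The authors deposited whole-number counts per gene symbol for each library, and a second table with 1 FPKM value per group, whose making is not stated. The symbols follow rat naming (650 begin with RGD and 40 with RT1, 0 with H2-), while the labels give mouse cells. Of 78 members 77 are also mouse symbols, and 24 mouse symbols of the same pattern are not among the gene symbols counted. Mouse reads counted on other gene models could be lost unevenly, so a count of 0 may be a lost gene, and this was not tested. Counts of array isoforms and close copies are uncertain, and without a stated strand setting antisense reads cannot be told apart.

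The test was run in edgeR 4.0.16 under R 4.3.3, with filterByExpr (minimum count 10, minimum total count 15; 14618 genes kept), TMM, a robust quasi-likelihood fit with group as its only term, two-sided p-values adjusted by Benjamini-Hochberg over all genes, threshold 0.05. SEs are the log2 fold change over the root of the F statistic. Levels are TMM-scaled CPM. The scripts were tested on simulated data. Named genes were those that passed with or without the block, the 8 with the highest CPM, any at 0 throughout 1 group with 50 or more counts in every library of the other group, and Cdh1, Cdh2, Cdh11, Cdh23, Pcdh15 and Dsg2. In each list up to 4 passing genes were named, or 2 by level where none passed. Dsp, Jup, Pkp1, Pkp4, Ppl, Perp, the catenins, Col1a2, Cdh9, Cdh10, Pcdhga2 and the other gamma and beta isoforms named were chosen after their values were seen. So were Col3a1, Vim, Col1a1, Pdgfra, Thy1, Tbx18, Myo7a, Myo6, Grhl2, Zeb2 and Twist1. Members, lists and settings were chosen with earlier results of these data known. No 2 libraries of the same group were duplicates (smallest chi-square per degree of freedom 14.3), and libraries of different groups were not compared in this way. The main test was not paired, and the replicate numbers were treated as pairs only in the fit with the block. The reason for that fit was that same-numbered libraries deviated together from their group means across genes (correlations 0.754, 0.696 and 0.310 for numbers 1, 2 and 3, all over 0.1). Nrf2 KO 3 correlated more with control 2 (0.539) than with control 3, and Nrf2 KO 2 with control 3 at 0.278, also over 0.1. Deviations from a group mean sum to 0 within the group. A trait shared by the libraries numbered 1 can therefore make those numbered 2 and 3 correlate too. The values for numbers 2 and 3 thus cannot show that these are pairs. The pairing rests on the counts, since the labels do not say what a number marks. Alternatives were DESeq2 1.42.0, other scalings and filters, the block, and libraries left out. No columns of other samples were present.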

Additional observations from a re-analysis of the deposited data

How the results depend on the processing

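Among the cadherin genes 5 rose and 1 fell with the label Nrf2 KO. The count higher was 9 by DESeq2, 3 with a filter of 1 CPM, 8 with the replicate block and 13 without both libraries numbered 1, with the other scalings and filters between 4 and 6. The count lower was 2 with no filter on low counts, 2 with the replicate block and 3 without both libraries numbered 1. With 1 library left out, 1 to 11 rose and 0 to 3 fell, where 0.925% to 15.6% and 0.379% to 14.5% of all tested genes did. Of the 43 list genes 3 rose and 2 fell (4.83% and 3.45% of all genes), with 6 higher by DESeq2 (10.9%), 8 with the replicate block (10.4%) and 16 without both libraries numbered 1 (24.0%), where 9 were lower (22.1%). With 1 library left out, 1 to 9 list genes rose and 0 to 6 fell, on the same background of 0.925% to 15.6% and 0.379% to 14.5%. Where the cause is not the number of genes or libraries tested, it was not tested. The log2 fold change of Pcdhgc3, -0.16 in the main test, was -0.51 to 0.30 with 1 library left out (0.30 without Nrf2 KO replicate 1) and 0.14 without both libraries numbered 1. That of Cdh24, 0.36 in the main test, was -0.16 (without Nrf2 KO replicate 1) to 0.60 with 1 library left out. Neither gene was called in any setting. Of the other values of named genes under an alternative, 157 kept their side of the threshold, 24 lost a call and 21 gained one, with no change of direction. The 1 CPM filter leaves out Cdh16, Pcdhgb5 and Pcdhb21, and the filter of 10 counts in 3 libraries leaves out Cdh16. Depth limits Cdh16 and Pcdhb21, called on 72 and 111 counts over the 6 libraries. Apart from the genes and counts given with both fits, the replicate block changed no call of a named member.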
